A study of Mus musculus with 12 samples.

Results

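The keratin genes of the mouse were followed across RNA-seq libraries of liver and subcutaneous fat. They were taken as the rows of the gene count table annotated as protein-coding whose symbol is Krt, a number and at most 1 letter, which gave 53 genes of 54532 in the table and of 22046 annotated as protein-coding. Of these, 6 were placed with the simple keratins, 19 with the stratified keratins, 24 with the hair follicle keratins and 4 in none of these classes. The mice were males that received, at 10 weeks of age, a single tail-vein dose of an adeno-associated virus serotype 8 vector, and tissue was taken 16 weeks later. The vector carried either no transgene (null) or full-length human HKDC1, a hexokinase-family protein (hHKDC1 OE). Both vectors used the hepatocyte-specific promoter of thyroxine-binding globulin, so fat cells were not the intended site of the transgene. There were 3 libraries in each of 4 groups, namely null liver, hHKDC1 OE liver, null fat and hHKDC1 OE fat. The fat libraries of a group came from separate mice per the legend to the fat data, whereas for liver the sources used here do not say which animal gave each library, so p-values in liver measure the spread between these libraries, which may be technical. The description field of the labels calls replicates 2 and 3 of both hHKDC1 OE groups knockouts, whereas their titles and treatment entries do not, and they were kept as hHKDC1 OE. Mouse Hkdc1 had 0 to 8 reads in every library, and no row for the human transgene was used, so the vector could not be checked from these counts.

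Keratins are the intermediate filament proteins of epithelia. A filament is built from heterodimers of an acidic type I and a basic type II keratin, so the genes are expressed as pairs that differ with the epithelium. KRT8 and KRT18 are the pair of simple epithelia and of hepatocytes, and cholangiocytes add KRT7 and KRT19. KRT5 pairs with KRT14 or KRT15 in the basal layer of stratified epithelia, including the epidermis and the myoepithelium of glands, and KRT1 pairs with KRT10 once epidermal cells leave that layer. The inner root sheath and the shaft of the hair follicle use sets of their own. Adipocytes are not epithelial and build filaments of vimentin. In the genome the type I genes lie together on chromosome 11 and the type II genes on chromosome 15, apart from Krt18, a type I gene that lies beside Krt8. Of the 53 genes, 27 were on chromosome 11, all of them type I, and 26 on chromosome 15, of which 25 were type II. Positions were those of GRCm38, since all 53 genes had the same chromosome, start and end in GENCODE release M21.

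Library totals lay between 15496019 and 19954971 counts on genes. At that depth 0 reads in a library allow up to 3, and intervals of this kind cover counting error only. Several fat libraries stood apart from the rest of their group. The summed level of 12 lymphocyte genes was 1184, 72.2 and 1012 CPM (counts scaled to library size with TMM factors within each tissue) in hHKDC1 OE fat replicates 1, 2 and 3, against 4.65 to 12.04 CPM in null fat. The summed level of 10 skeletal muscle genes ran from 658 to 28670 CPM in null fat and from 1245 to 18700 CPM in hHKDC1 OE fat. The adipocyte list ran from 17720 to 30090 CPM over the 6 fat libraries and from 29.9 to 108.7 CPM in liver. In bulk tissue, fewer cells of a type and less RNA per cell cannot be told apart.

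Keratins made a steady pool in liver and an uneven one in fat. The summed keratin level was 233 to 252 FPKM (read fragments scaled to transcript length and library depth) in null liver and 226 to 292 FPKM in hHKDC1 OE liver. In null fat it was 123.6, 16.3 and 60.5 FPKM in replicates 1 to 3, and in hHKDC1 OE fat 6.66, 173.9 and 8.49 FPKM. The highest and the lowest of the fat libraries were both hHKDC1 OE. Reads were present for 7 to 10 of the 53 genes in each liver library, for 20, 21 and 26 in null fat, and for 17, 43 and 24 in hHKDC1 OE fat. No reads were counted in any library for 7 genes, namely Krt2, Krt6b, Krt12, Krt16, Krt42, Krt76 and Krt88, and another 8 genes never reached 10 reads. The classes differed as much as the totals. Simple keratins made up 99.4% to 99.6% of the keratin FPKM of every liver library. Stratified keratins made up 93.1%, 56.2% and 81.9% in null fat, against 26.1%, 5.84% and 25.3% in hHKDC1 OE fat. Their summed level was 115.1, 9.18 and 49.6 FPKM against 1.74, 10.2 and 2.15 FPKM, so that of hHKDC1 OE fat replicate 2 lay above that of null fat replicate 2 and the groups overlapped. Hair follicle keratins made up 91.2% in hHKDC1 OE fat replicate 2 and 0.568% to 14.6% in the other 5 fat libraries.

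**Figure D1:**
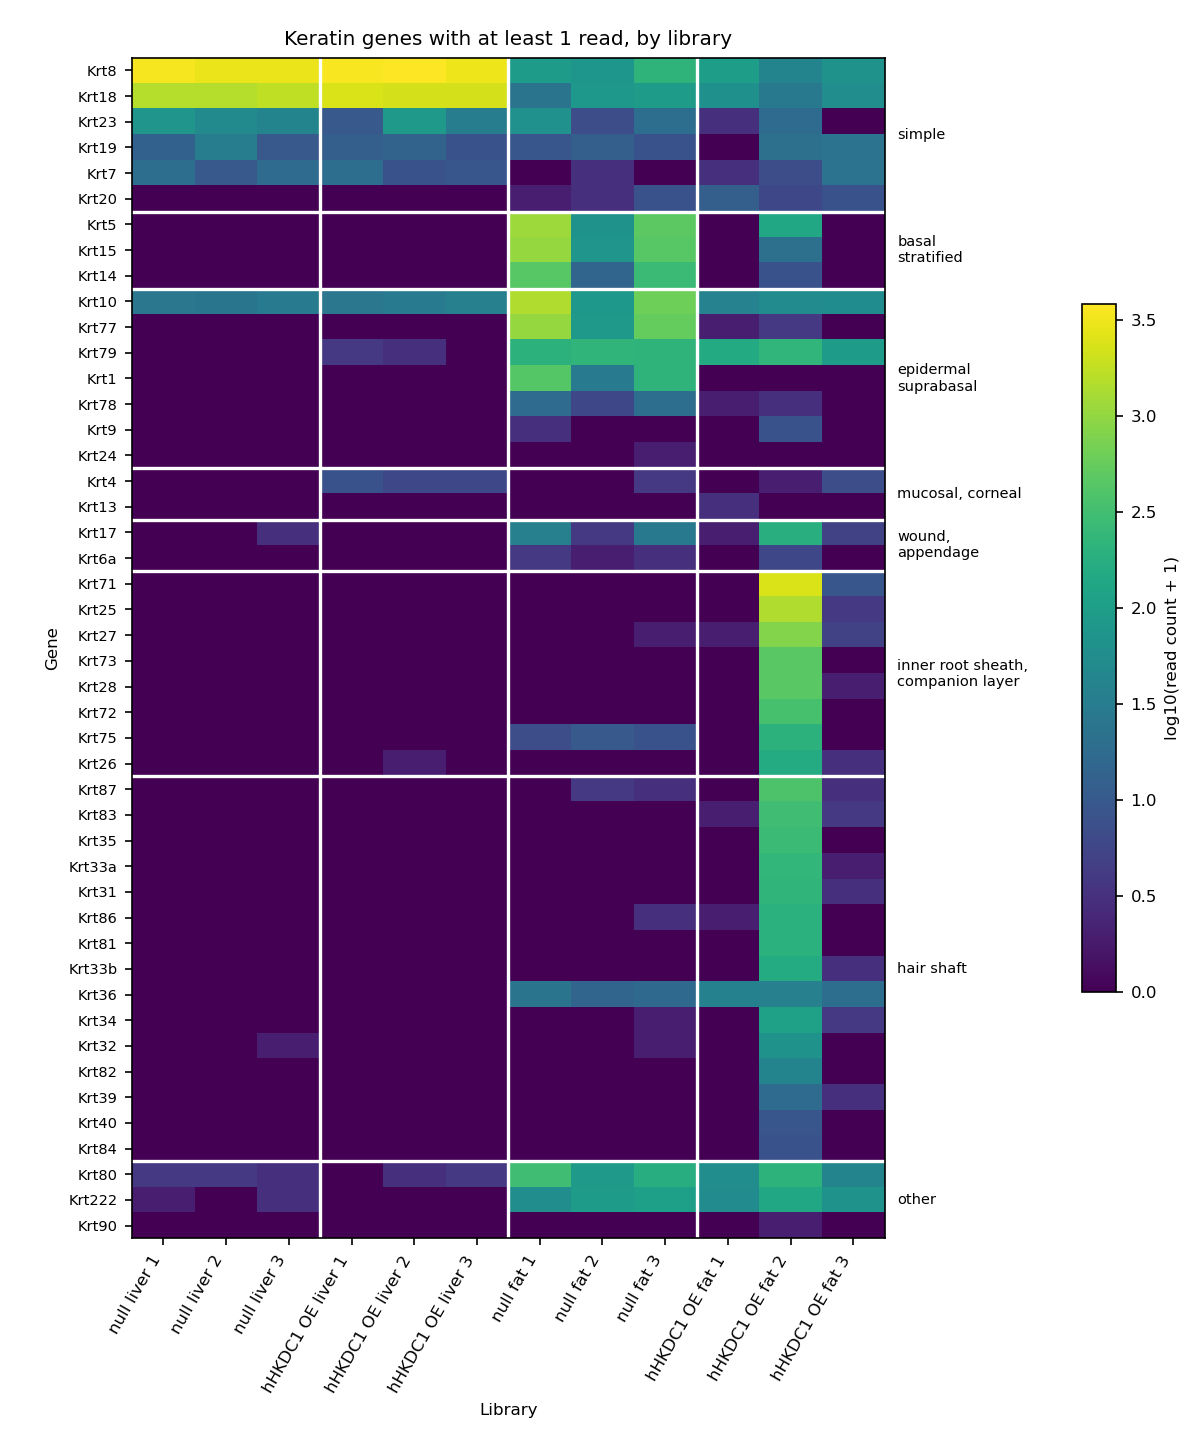
Read counts of the 46 keratin genes with at least 1 read, as log10(count + 1), with genes in rows by class and the 12 libraries in columns. Krt8 and Krt18 fill the liver columns, the basal and suprabasal epidermal keratins fill the null fat columns, and the hair follicle keratins fill the column of hHKDC1 OE fat replicate 2.

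**Figure D2:**
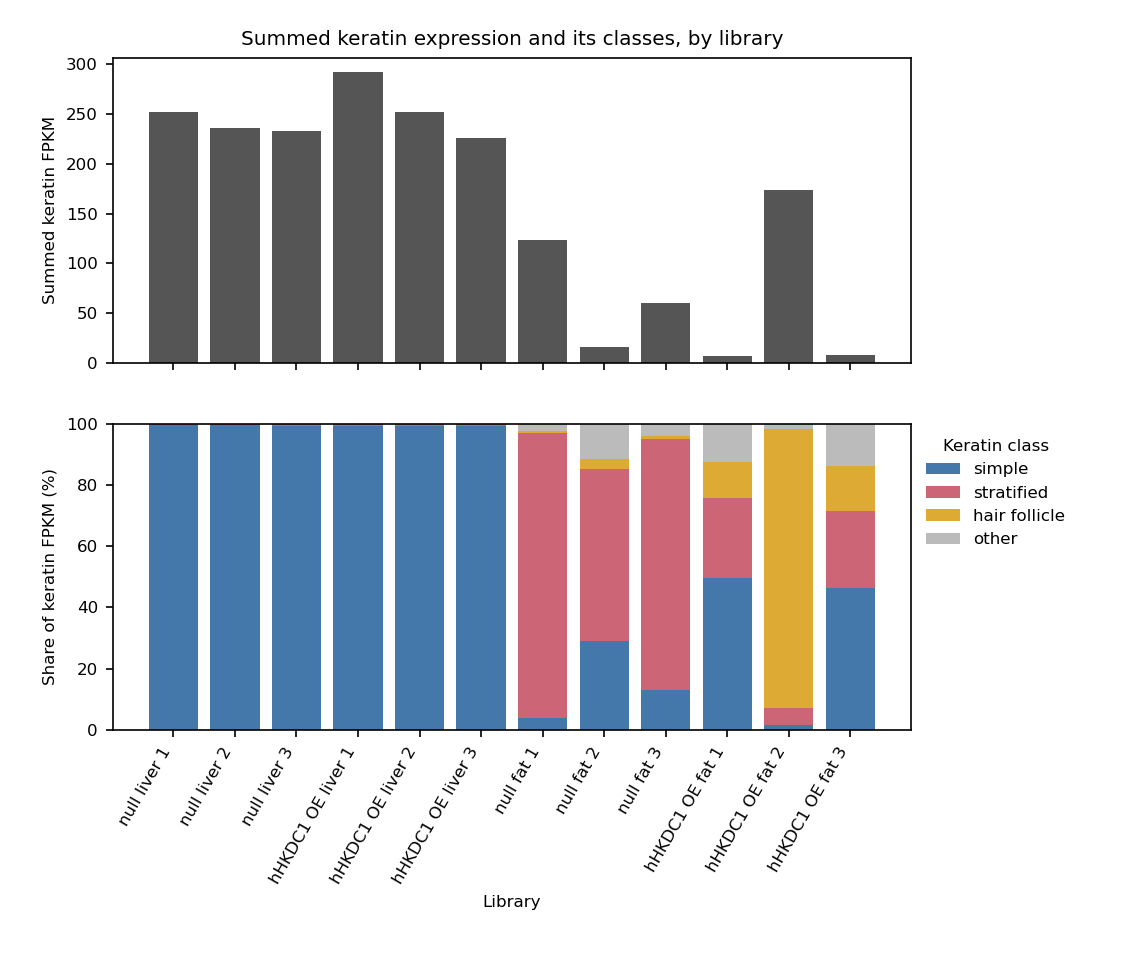
Summed FPKM of the 53 keratin genes in each library (top) and the share of it in each class in percent (bottom). Liver is nearly all simple keratin, null fat is mostly stratified, and 1 hHKDC1 OE fat library is mostly hair follicle keratin.

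In liver the pool was Krt8 and Krt18. Krt8, the type II partner, had 3497, 3008 and 3052 reads in null liver and 3512, 3853 and 3077 in hHKDC1 OE liver. Its level was 200.4 ± 13.9 CPM (SD, n = 3) against 195.0 ± 27.3 CPM (SD, n = 3), and the groups overlapped. Krt18, the type I partner, had 1522, 1552 and 1723 reads in null liver and 2412, 2250 and 2239 in hHKDC1 OE liver. Its level was 100.6 ± 6.42 CPM (SD, n = 3) against 129.1 ± 16.6 CPM (SD, n = 3), and the groups did not overlap. The log2 difference of Krt18 was 0.36 (SE 0.15), with an adjusted p of 0.664 by edgeR's quasi-likelihood test, so it was not past the threshold of 0.05. Its unadjusted p was under 0.05, as for 6.94% of all 13351 genes tested in liver. None of the 6 keratins tested in liver was called, where 0% of all genes were. Krt18 alone among them had groups that did not overlap, in a comparison where 6.31% of all genes lay higher without overlap and 6.18% lower. The log2 difference of Krt8 was -0.04 (SE 0.16), with an adjusted p of 0.983 in the same test.

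Because both partners enter 1 filament, their ratio was computed within each library, a measure chosen after their values were seen. On FPKM, Krt8 over Krt18 was 1.69, 1.42 and 1.30 in null liver and 1.07, 1.26 and 1.01 in hHKDC1 OE liver. All 3 hHKDC1 OE libraries lay below all 3 null libraries. The means were 1.47 ± 0.197 (SD, n = 3) and 1.11 ± 0.129 (SD, n = 3), a difference of -0.358, with p = 0.1 in a two-sided exact permutation test, which is the smallest p that 3 against 3 allows. The ratio does not depend on how the libraries were scaled to each other. In fat the same ratio ran from 0.697 to 2.90 in null and from 0.850 to 1.13 in hHKDC1 OE, on 23 to 214 reads a gene. Over all keratins of a liver library, type II over type I FPKM was 1.25 to 1.59 in null and 0.986 to 1.20 in hHKDC1 OE, since Krt8 and Krt18 carry nearly all of it.

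**Figure D3:**
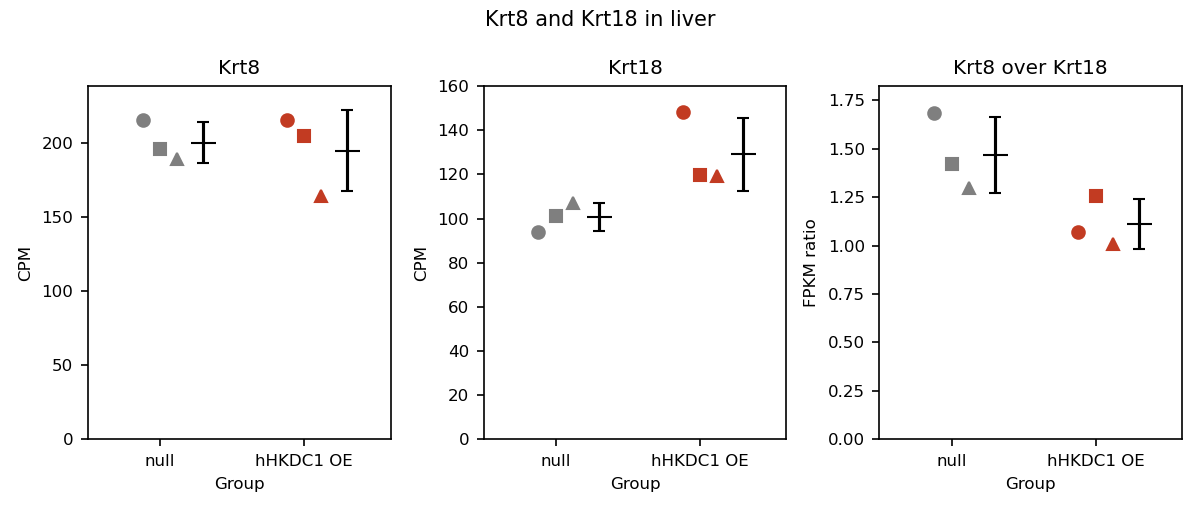
Krt8 and Krt18 in CPM and their FPKM ratio in the 3 null (grey) and 3 hHKDC1 OE (red) liver libraries, with circle, square and triangle for replicates 1, 2 and 3 and the mean with its SD beside them. Krt8 overlaps between groups, Krt18 does not, and the ratio is lower in every hHKDC1 OE library.

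The ductal keratins were close to the detection limit in liver. Krt19 had 12, 32 and 9 reads in null liver and 11, 13 and 7 in hHKDC1 OE liver. Krt7 had 19, 9 and 17 reads against 19, 7 and 8. Both overlapped between groups, with adjusted p of 0.830 and 0.907 by edgeR. Markers of bile duct epithelium ranged in level. Epcam, its surface adhesion molecule, had 18 to 31 reads in each liver library. Cftr, its chloride channel, had 0 to 3, and Sox9, its transcription factor, had 42 to 77. The list of 9 such genes summed to 1061, 1089 and 1124 reads in null liver and 1807, 1167 and 1694 in hHKDC1 OE liver, so other members held most of its reads. In CPM these sums were 65.5, 70.9 and 69.7 against 111.1, 62.1 and 90.3, and the groups overlapped. Of 9 bile duct genes, 6 were tested in liver and none was called, with a median log2 difference of 0.01 over them and 0.01 over all genes. Krt23, a keratin of simple epithelia, had 73, 49 and 40 reads in null liver and 9, 83 and 31 in hHKDC1 OE liver. In CPM these were 4.51, 3.19 and 2.48 against 0.553, 4.41 and 1.65, and the groups overlapped. Krt10 was the sole stratified keratin with over 10 reads in liver, at 24 to 35 reads in each of the 6 libraries. Krt4, a keratin of mucosal epithelia, is named because of its values and could not be tested after the filter: it had 0 reads in each null liver library and 7, 5 and 5 in hHKDC1 OE liver.

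The comparison of null fat with null liver gives what each tissue sample held without the transgene. Of 15 keratins tested, 10 were higher in fat and 4 were higher in liver at an adjusted p under 0.05 by edgeR, in a comparison where 33.8% of all genes were called higher in fat and 30.5% higher in liver. The 4 higher in liver were all simple keratins. Krt8 was lower in fat by a log2 difference of -5.72 (SE 0.38), Krt18 by -5.64 (SE 0.44), Krt7 by -5.20 (SE 0.93) and Krt19 by -2.05 (SE 0.64). The 10 higher in fat were Krt1, Krt5, Krt10, Krt14, Krt15, Krt36, Krt77, Krt79, Krt80 and Krt222. For 7 of them no read was counted in null liver, so a fold is a lower bound set against 3 reads over the 3 libraries. On that bound Krt5 was at least 507-fold higher in null fat, Krt77 at least 504-fold, Krt15 at least 465-fold, Krt14 at least 222-fold, Krt1 at least 204-fold, Krt79 at least 192-fold and Krt36 at least 15.9-fold. Krt10, which had reads in liver, was higher by a log2 difference of 3.72 (SE 0.91), Krt222 by 5.25 (SE 0.68) and Krt80 by 5.04 (SE 0.63). The median log2 difference of the 15 keratins was 5.25 as fitted and 5.04 with those genes at their bound, against 0.09 over all genes.

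In fat, the main keratins of the epidermis were highest in null replicates 1 and 3 and lower in null replicate 2 and in all 3 hHKDC1 OE libraries. Krt5, the type II keratin of the basal layer, had 1134, 68 and 486 reads in null fat, against 0, 139 and 0 in hHKDC1 OE fat. Krt15, a basal type I keratin, had 1030, 73 and 444 reads against 0, 20 and 0. Krt14, the other basal type I keratin, had 452, 14 and 274 reads against 0, 7 and 0. All 3 were at 0 in hHKDC1 OE replicates 1 and 3, and for Krt5 alone hHKDC1 OE replicate 2 exceeded the lowest null library. The suprabasal keratins Krt10, Krt77 and Krt1 were also highest in null replicate 1 and lowest of the null libraries in replicate 2. Krt10 had 1426, 81 and 613 reads against 38, 52 and 54. Krt77, a type II keratin of suprabasal epidermis and sweat ducts, had 1049, 82 and 545 reads against 1, 3 and 0. Krt1 had 435, 30 and 215 reads against 0 in each hHKDC1 OE library. In each of these 3 genes every null library lay above every hHKDC1 OE library. Krt78, of the same layers, had 17, 5 and 19 reads against 1, 2 and 0, on too few reads to rank null replicates 1 and 3.

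None of the 15 keratins tested in fat was called at an adjusted p under 0.05, where 0% of all 16380 genes were called. An unadjusted p under 0.05 was reached by 5 of them, all lower in hHKDC1 OE, in a comparison where 17.7% of all genes reached it. Krt77 differed by a log2 value of -8.76 (SE 1.26) with an adjusted p of 0.133 by edgeR. Krt14 differed by -6.83 (SE 1.58), Krt15 by -6.46 (SE 1.49) and Krt10 by -4.03 (SE 0.94), each with an adjusted p of 0.134. Krt1, with no read in hHKDC1 OE fat, was at least 230.0-fold lower there, set against 3 reads over the 3 libraries, with an adjusted p of 0.133. Krt5 differed by -3.85 (SE 1.75) with an adjusted p of 0.304. The groups did not overlap for 7 of the 15 keratins, all lower in hHKDC1 OE, namely Krt1, Krt8, Krt10, Krt14, Krt15, Krt77 and Krt79. Over all genes, 10.2% were lower without overlap and 12.5% were higher. Without hHKDC1 OE fat replicate 2, 8 of 16 keratins tested were called lower (Krt1, Krt5, Krt14, Krt15, Krt77, Krt78, Krt79 and Krt80), where 7.53% of all genes were called lower. That left hHKDC1 OE replicates 1 and 3, the libraries with the highest lymphocyte list. By DESeq2 5 keratins were called lower with all libraries, Krt1, Krt10, Krt14, Krt77 and Krt78, where 0.995% of all genes were called lower. DESeq2 fitted 46 keratins, of which 26 had no adjusted p. Without the filter on low counts 5 of 46 keratins were called lower (0.268% of all genes). With the 12 libraries in 1 fit 5 of 16 were called lower (0.621%), and with a replicate block 2 of 15 (0.0549%). Upper-quartile scaling, library size alone, at least 10 counts in every library and limma on FPKM called no keratin.

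**Figure D4:**
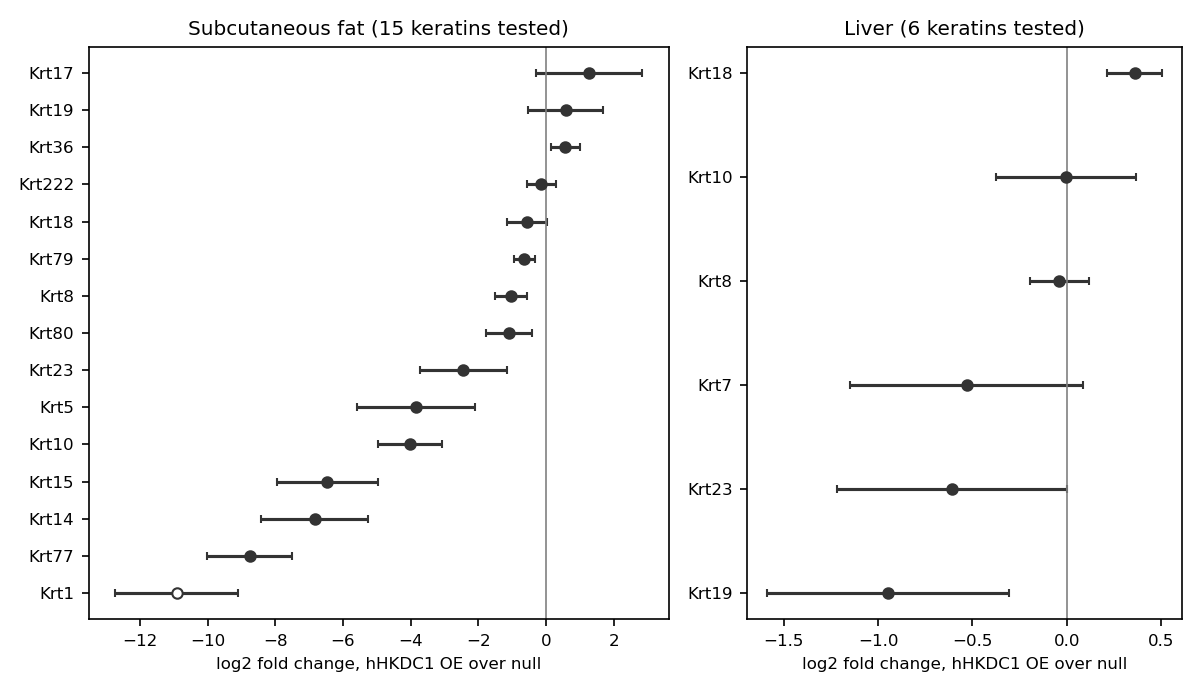
log2 fold change of hHKDC1 OE over null with its SE (bars) for the 15 keratins tested in fat and the 6 tested in liver, from edgeR. The epidermal keratins Krt1, Krt5, Krt10, Krt14, Krt15 and Krt77 lie between -10.9 and -3.85 in fat, and the open symbol marks Krt1, whose fitted value rests on a group with no reads and is not a bound.

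Within the null fat libraries Krt10, Krt15, Krt1 and Krt77 stayed in similar proportion to Krt5, whose level was 23.2, 1.39 and 8.96 FPKM in replicates 1 to 3. On FPKM, Krt10 over Krt5 was 1.31, 1.24 and 1.31, Krt15 over Krt5 was 1.13, 1.33 and 1.14, and Krt1 over Krt5 was 0.191, 0.220 and 0.220. Krt77 over Krt5 was 0.693, 0.904 and 0.841. Krt14 over Krt5 varied more, at 0.498, 0.257 and 0.705, as did Krt78 over Krt5 at 0.00958, 0.0470 and 0.0250. Krt79 did not follow Krt5, with a ratio of 0.0811, 1.52 and 0.205. In hHKDC1 OE fat replicate 2, the single library of that group with reads of Krt5, the same ratios were 0.389 for Krt10, 0.179 for Krt15, 0.0162 for Krt77, 0.0629 for Krt14 and 0 for Krt1, each below the null libraries. They were 0.758 for Krt79, within the null range, and 0.00920 for Krt78, on 2 reads. Krt5 was at 2.32 FPKM in this library and at 1.39 FPKM in null fat replicate 2, whereas Krt10, Krt15, Krt77, Krt14 and Krt1 were each lower in it than in that null library. These ratios are descriptions of 4 libraries and were not tested.

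Other genes of the epidermis differed between the same libraries. Of 20 epidermis genes, 16 were tested in fat and none was called, 13 being lower and 3 higher in hHKDC1 OE, with a median log2 difference of -1.24 against -0.05 over all genes. Lor, a protein of the cornified envelope, had 869, 37 and 357 reads in null fat against 7, 19 and 6, and Krtdap, a marker of differentiating keratinocytes, had 415, 43 and 179 against 0, 7 and 0. Flg2, a filaggrin-family protein, had 205, 14 and 78 reads against 0 in each hHKDC1 OE library. Trp63, the transcription factor of basal cells, had 209, 69 and 127 reads against 57, 116 and 40, and Cdsn, which holds corneocytes together, had 2345 to 4080 reads in all 6 fat libraries. Sfn, an epithelial 14-3-3 protein, went the other way, with 160, 67 and 89 reads against 361, 400 and 239. The summed level of the list was 481, 234 and 312 CPM in null fat and 177, 313 and 196 CPM in hHKDC1 OE fat. Cdsn gave a large part of it, since the whole list had 3186 to 7914 reads in a fat library. The list also summed to 103 to 158 CPM in liver, so it is not a measure of epidermis alone. The part of skin in the samples in these keratin differences was not tested. Mammary epithelium was looked for with 9 genes. The caseins Csn1s1 and Csn2 had 0 reads in all 12 libraries, Lalba and Wap had 0 to 3 in fat, and Csn3 had 16 reads in hHKDC1 OE fat replicate 3 and 0 in the other fat libraries. The list summed to 3.74 to 20.9 CPM in fat, of which Aldh1a3, an aldehyde dehydrogenase that is not restricted to that epithelium, gave 3.17 to 20.0 CPM. In hHKDC1 OE fat replicate 3 the list summed to 7.87 CPM and Aldh1a3 was at 3.75 CPM, with 36 reads of Cited1 and 10 of Elf5 beside those of Csn3.

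**Figure D5:**
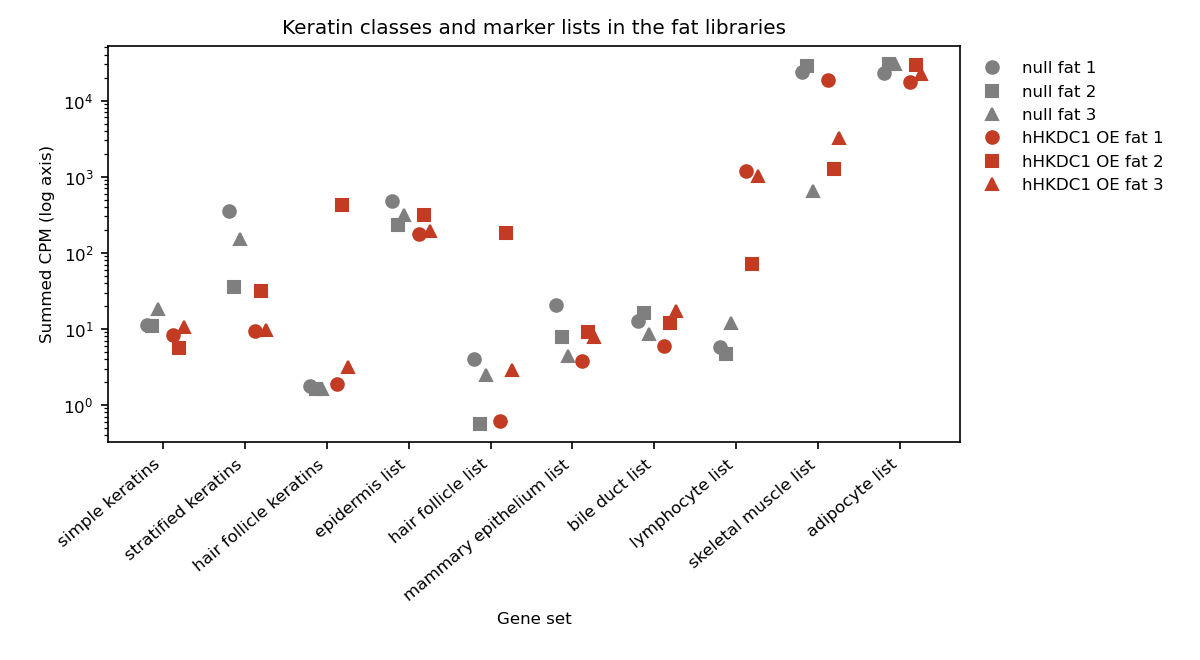
Summed CPM on a log axis of keratin classes and of marker lists in the 3 null (grey) and 3 hHKDC1 OE (red) fat libraries, with circle, square and triangle for replicates 1, 2 and 3. Stratified keratins are highest in null replicates 1 and 3, hair follicle keratins and the hair follicle list are highest in hHKDC1 OE replicate 2, and the lymphocyte list is highest in hHKDC1 OE replicates 1 and 3.

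The hair follicle keratins came almost wholly from hHKDC1 OE fat replicate 2. That library had reads for 23 of the 24 genes and at least 10 reads for 21 of them, of which 20 were under 10 reads in each of the other 11 libraries. Their reads summed to 8598 there, against 26 to 52 in the other 5 fat libraries and 0 or 1 in liver. Both parts of the follicle were present. The 8 keratins of the inner root sheath and companion layer summed to 6338 reads. Krt71, the main type II keratin of the inner root sheath, had 2407 reads, with 8 in hHKDC1 OE fat replicate 3 and 0 in the other 10 libraries. Krt25, its type I partner, had 1453 reads, with 3 in hHKDC1 OE fat replicate 3 and 0 elsewhere. Krt27 had 845 reads, Krt73 466, Krt28 460, Krt72 350 and Krt26 158, with 0 to 4 in every other library. Krt75, of the companion layer, had 199 reads, against 6, 9 and 7 in null fat and 0 in hHKDC1 OE replicates 1 and 3. The 16 hair shaft keratins summed to 2260 reads, led by Krt87 with 385, Krt83 with 308, Krt35 with 279, Krt33a with 236 and Krt31 with 218. Type II over type I FPKM was 0.922 over all keratins of this library, and 0.561 to 0.890 over those of the other 5 fat libraries.

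A gene present in 1 of 3 libraries seldom passes the filter on low counts, and 1 of the 24 hair follicle keratins was tested in fat. The main fit therefore gave no difference between the groups for the others, and their reads describe that library. DESeq2 and the fit without that filter also took in others of them, and neither called a keratin higher in hHKDC1 OE fat. Several genes of the follicle that are not keratins were also high there. Tchh, the trichohyalin that hardens the inner root sheath, had 3255 reads in hHKDC1 OE fat replicate 2 and 0 to 20 in the other fat libraries. Padi3, which modifies it, had 164 reads against 0 to 9, Foxn1, a regulator of hair keratins, 56 against 0 or 1, and Hoxc13, another such regulator, 35 against 0 or 1. Others of the same list were not: Lgr5, a stem cell receptor that is also expressed in liver, had 28, 6 and 17 reads in null fat against 7, 18 and 11, and Shh had 3 reads in that library and 2 in hHKDC1 OE replicate 3. The 10 genes of that list summed to 182 CPM in this library and to 0.558 to 4.01 CPM in the other 5. Keratin-associated proteins, which embed the shaft keratins and were added as a list after the values were seen, summed to 1956 reads over 57 genes there. They summed to 112 and 163 reads in hHKDC1 OE replicates 1 and 3, 52, 14 and 53 in null fat and 0 in liver. All 3 hHKDC1 OE fat sums lay above the null ones, in a comparison where 12.5% of all genes tested were higher without overlap. Of the 57 genes, 2 were tested in fat and none was called. Krt17, a keratin of the outer root sheath and of wounded epidermis, had 184 reads in the same library, against 36, 3 and 27 in null fat and 1 and 4 in the other hHKDC1 OE libraries. Its log2 difference was 1.28 (SE 1.57) with an adjusted p of 0.679 by edgeR, and -3.14 without hHKDC1 OE fat replicate 2, with an adjusted p of 0.132.

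The stretch just before the start of transcription is shown for the inner root sheath genes with the most reads that had an entry. Beside them are basal, suprabasal and simple keratins with fewer reads in hHKDC1 OE fat replicate 2, namely Krt5 with 139, Krt10 with 52, Krt18 with 27 and Krt77 with 3. The sequences are from RefSeq on GRCm38.p6, are the 60 bases before the RefSeq start on the strand of the gene, and the capitals mark TATAAA, the core of a TATA box.
Krt71: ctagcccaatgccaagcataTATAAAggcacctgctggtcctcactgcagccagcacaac
Krt25: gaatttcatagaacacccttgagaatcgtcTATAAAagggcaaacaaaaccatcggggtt
Krt27: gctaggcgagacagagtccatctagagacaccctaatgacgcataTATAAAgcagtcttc
Krt73: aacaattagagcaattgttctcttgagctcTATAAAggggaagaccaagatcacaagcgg
Krt28: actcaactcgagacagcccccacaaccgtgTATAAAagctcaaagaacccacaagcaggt
Krt72: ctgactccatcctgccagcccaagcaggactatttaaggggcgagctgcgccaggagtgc
Krt10: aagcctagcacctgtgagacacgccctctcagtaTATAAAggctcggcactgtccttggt
Krt5: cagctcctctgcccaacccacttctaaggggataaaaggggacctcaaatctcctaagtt
Krt77: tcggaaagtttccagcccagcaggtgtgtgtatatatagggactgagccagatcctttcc
Krt18: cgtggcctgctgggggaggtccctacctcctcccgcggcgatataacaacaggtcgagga
They lie at chr15:101743098-101743157 (Krt71), chr11:99322952-99323011 (Krt25), chr11:99351119-99351178 (Krt27), chr15:101802361-101802420 (Krt73), chr11:99374904-99374963 (Krt28), chr15:101786521-101786580 (Krt72), chr11:99389365-99389424 (Krt10), chr15:101712906-101712965 (Krt5) and chr15:101869706-101869765 (Krt77), all on the minus strand, and chr15:102028156-102028215 (Krt18) on the plus strand. The letters TATAAA stood in this window in Krt71, Krt25, Krt27, Krt73, Krt28 and Krt10, and not in Krt72, the other inner root sheath gene shown, nor in Krt5, Krt77 and Krt18. The RefSeq start is not always the gene start of the count table: it lay 36 bases inside the gene for Krt18 and 12 for Krt71, and upstream of it by 60 bases for Krt72, 14 for Krt27 and Krt73 and 7 for Krt5, so the window depends on the start used. Krt72 held the letters, on either strand, within the 250 bases before its RefSeq start. Entries were matched for 36 of the 53 keratins, with 37 promoters, of which 15 (40.5%) held TATAAA on the strand of the gene in the last 60 bases, against 2.87% of all 32851 promoters. By class these were 11 of 17 hair follicle, 3 of 13 stratified and 1 of 5 simple keratin promoters. Over the whole 250 bases and both strands, 17 of the 37 keratin promoters (45.9%) held TATAAA or its reverse complement TTTATA, against 12.4% of all promoters. Such a match is a description of the letters and not of a site in use, and where the letters are missing nothing follows about the factor.

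Krt79, Krt36, Krt222, Krt80 and Krt20 had reads in all 6 fat libraries. Krt79, a type II keratin of sebaceous ducts and the upper follicle, had 199, 223 and 216 reads in null fat, against 154, 228 and 91 in hHKDC1 OE fat, while Krt5 ran from 0 to 1134 reads in the same libraries. In CPM it was 12.5 ± 1.19 (SD, n = 3) against 8.01 ± 2.84 (SD, n = 3), with a log2 difference of -0.64 (SE 0.30) and an adjusted p of 0.317 by edgeR, and the groups did not overlap. Krt36, classed with the hair shaft keratins, had 23, 14 and 16 reads against 37, 35 and 19, so it was present where the other shaft keratins were at or near 0. Its log2 difference was 0.57 (SE 0.43), with an adjusted p of 0.502. Krt222, a keratin-like type I gene, had 57, 91 and 105 reads against 53, 136 and 69, a log2 difference of -0.14 (SE 0.43), and Krt80, a widely expressed type II keratin, had 302, 85 and 171 reads against 57, 206 and 40, a log2 difference of -1.10 (SE 0.68). Their adjusted p were 0.876 and 0.421, and both overlapped between groups. Krt20, a simple keratin with 0 reads in liver, had 1, 2 and 7 reads in null fat, against 11, 5 and 7 in hHKDC1 OE fat.

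The simple keratins were low in fat. Krt8 had 91, 76 and 214 reads in null fat, against 97, 41 and 66 in hHKDC1 OE fat, or 7.23 ± 3.67 CPM (SD, n = 3) against 3.55 ± 1.37 CPM (SD, n = 3), without overlap in CPM. Its log2 difference was -1.03 (SE 0.48), with an adjusted p of 0.314 by edgeR. Krt18 had 23, 80 and 96 reads against 63, 27 and 57, with a log2 difference of -0.56 (SE 0.59) and an adjusted p of 0.626. The hepatocyte list summed to 3792, 4067 and 9887 CPM in null fat and to 2983, 1839 and 2643 CPM in hHKDC1 OE fat, highest in null replicate 3 as Krt8 was, and its part in the Krt8 and Krt18 reads of fat was not tested. Krt19 had 8, 11 and 7 reads against 0, 20 and 22, and Krt7 had 0, 2 and 0 against 2, 6 and 22. Krt23 had 64, 6 and 19 reads against 2, 17 and 0, a log2 difference of -2.45 (SE 1.29) with an adjusted p of 0.360.

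The effect of the vector in fat was set against its effect in liver with an interaction contrast fitted to all 12 libraries. Whether liver and fat libraries with the same number came from the same mouse is not given in the sources used here, and this contrast and that of null fat with null liver treated them as independent. Of 16 keratins tested, none was called, where 0% of all 17070 genes were called. An unadjusted p under 0.05 was reached by 3 keratins, against 12.7% of all genes. For Krt10 the effect in fat was lower than that in liver by a log2 difference of -3.94 (SE 1.02), with an adjusted p of 0.149 by edgeR and 0.00295 by DESeq2. DESeq2 called 2.88% of all genes in this contrast and edgeR without the filter on low counts 1.53%, and Krt10 was the 1 keratin called by each. For Krt7 it was higher by 4.16 (SE 1.54), with an adjusted p of 0.291. For Krt79 the difference was -4.90 (SE 1.65) with an adjusted p of 0.255, and its effect in liver rests on 3 and 2 reads in hHKDC1 OE replicates 1 and 2. For Krt1, Krt5, Krt14, Krt15, Krt36 and Krt77 no read was counted in any liver library, so the difference between tissues could not be estimated.

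The proteins that anchor keratin filaments at desmosomes and hemidesmosomes, and the other intermediate filaments, were examined as lists. Of 22 desmosome and hemidesmosome genes, 21 were tested in fat and none was called, 15 being lower and 6 higher, with a median log2 difference of -0.40 against -0.05 over all genes. By smallest p these were Col17a1, a hemidesmosomal collagen, with 448, 58 and 166 reads in null fat against 14, 42 and 8, and Pkp3, a plakophilin, with 85, 12 and 55 against 501, 206 and 343. Desmoplakin itself, Dsp, had 513, 27 and 255 reads against 28, 587 and 26, the order of libraries in which the stratified and hair follicle keratins together were high. In liver 15 of the 22 were tested and none was called, with a median of 0.00, and Ppl, periplakin, had the smallest p, with 147, 177 and 124 reads against 272, 282 and 297. Of 18 other intermediate filament genes, 11 were tested in fat and none was called. Vim, the vimentin of mesenchymal cells, had 22342 to 31789 reads in null fat and 18340 to 34330 in hHKDC1 OE fat, and Lmnb1, a nuclear lamin, had 101, 121 and 176 against 664, 228 and 499. Of 24 epithelial regulators and junction genes, 16 were tested in fat and none was called, 10 being lower and 6 higher. Ehf, an epithelial transcription factor, had 4, 3 and 0 reads in null fat against 88, 16 and 128, highest in the libraries where the lymphocyte list was also highest, and the part of other cell types in it was not tested.

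Some of these genes cannot be counted apart from close copies or from overlapping genes. Of the 53 keratins, 11 had over 10% of the 100-base windows of their longest transcript in a transcript of another gene. Among those with reads, these included Krt81 (29.0% of windows) and Krt86 (24.6%), mostly shared with each other, Krt34 (17.5%), Krt31 (14.0%) and Krt33a (12.4%), shared within that group, and Krt8 (17.0%), shared with a pseudogene. How many reads were split or dropped among them is not given in the sources used here. Krt5, Krt14 and Krt75 shared under 5% of windows, and Krt1, Krt10, Krt15, Krt18, Krt71, Krt77 and Krt79 shared none. The libraries did not mark strand, and 12 keratins shared exon bases with another gene, among them Krt10 (6.91% of its exon bases, with Gm11940 on the other strand), Krt5 (5.87%) and Krt8 (5.16%).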

How the data were processed

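Bulk RNA-seq of liver and subcutaneous fat was analysed in 12 libraries. Per the study's methods, the authors made paired-end, non-strand-specific libraries, mapped reads with STAR and counted them with HTSeq 0.6.1. Those methods name the human reference genome, whereas the table lists mouse genes at GRCm38 positions, and GRCm38 was used. The authors deposited whole-number read counts per gene without normalization, and FPKM values, which were used for levels between genes. Their deposited table of fold changes and p-values for fat was not used. The members and lists were chosen with earlier results of these data known. Keratin classes were assigned by hand. Counts were fitted with edgeR 4.0.16 (TMM, filterByExpr, glmQLFit, glmQLFTest, R 4.3.3) and adjusted by Benjamini-Hochberg over all genes tested, each comparison on its own libraries. Alternatives used DESeq2 1.42.0, limma 3.58.1 on log2(FPKM + 1) or log2(FPKM + 0.1) at a mean FPKM of at least 0.1, other scalings and filters, a replicate block, and leaving out each library. The fits were run on simulated counts with the same dispersion for every gene. That does not show how they behave on keratins that vary widely within a group. Genes named are the pairs Krt8, Krt18, Krt7, Krt19, Krt5, Krt14, Krt1 and Krt10, keratins called in any comparison, the 5 highest by FPKM in each tissue and the 5 smallest p in each. Others named with values were chosen after these were seen. Samples with the same replicate number deviated together in liver (r = 0.231, 0.191 and 0.116 over genes for replicates 1, 2 and 3). In fat they did not (r = 0.0307, -0.143 and 0.0394). Between null fat and null liver r was 0.278, 0.045 and 0.15. The main fits and the main test of the Krt8 over Krt18 ratio did not use the replicate numbers as pairs. Pairing by number entered only as an alternative.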

Additional observations from a re-analysis of the deposited data

How the results depend on the processing

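In fat, the 0 keratins called became 5 by DESeq2, 5 without a filter on low counts, 5 with the 12 libraries in 1 fit and 2 with a replicate block, all of them lower in hHKDC1 OE, and 0 to 8 on leaving out each library, the 8 without hHKDC1 OE fat replicate 2. Over all genes, DESeq2 called 1446 of 19395 (193 lower), the unfiltered fit 803 of 29853 (80 lower), the fit of 12 libraries 876 of 17070 (106 lower) and the block 168 of 16380 (9 lower). The unfiltered fit also tested hair follicle keratins with reads in 1 library, and the median log2 difference of the keratins it tested was 2.72, against -1.10. In it 20 keratins were higher and 8 lower at an unadjusted p under 0.05, which 3922 of all 29853 genes reached. The other scalings, the filter of 10 counts in every library and limma called no keratin in fat. No alternative called a keratin in liver, where over all genes DESeq2 called 94 of 12768, the unfiltered fit 327 of 24792, the block 17 of 13351 and the fit without hHKDC1 OE liver replicate 2 146 of 13587, and where the replicate block gave Krt18 a log2 difference of 0.35 and changed no call, and 0 reached an unadjusted p under 0.05 with it, against 2 by DESeq2. For the Krt8 over Krt18 ratio in liver, pairing by replicate number, added after seeing the data, gave p = 0.25 in an exact permutation test, the smallest that 3 pairs allow. Since its groups do not overlap, neither pairing nor leaving out a library can turn its direction. The 14 keratins called between null fat and null liver became 3 when at least 10 counts were required in every library, which left 3 to test, and ran from 13 to 16 on leaving out each library. For the difference between the tissues, DESeq2 and the unfiltered fit each called 1, Krt10, of 497 of 17266 and 479 of 31243 genes called, and without hHKDC1 OE fat replicate 2 no keratin was called among 1211 of 17875 genes. Signs also turned, for no value past the threshold. In fat the log2 difference of Krt17, 1.28, became -1.233 with the replicate block and -0.1998 with limma on log2(FPKM + 0.1), and ran from -3.142, without hHKDC1 OE fat replicate 2, to 1.909 on leaving out each library. For the difference between the tissues it ran from -0.02059, without the same library, to 5.149. In liver the log2 difference of Krt10 became 0.0003742 with upper-quartile scaling, 0.0606 with library size alone, 0.00496 without a filter and 0.00345 at 10 counts in every library, and ran from -0.1109 to 0.0708 on leaving out each library. That of Krt8 became 0.0219 with library size alone and ran from -0.1199 to 0.0714. In fat that of Krt222 became 0.0152 with library size alone and ran from -0.5545 to 0.1503, and that of Krt19, 0.58, ran from -0.0726, without hHKDC1 OE replicate 3, to 1.17. For the difference between the tissues Krt80 ran from -1.371 to 0.4754.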

Other observations

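Some epithelial genes that are not keratins were highest in the hHKDC1 OE fat libraries without reads of Krt5, and they are named here because of their values. Dsc3, a desmosomal cadherin of stratified epithelia, had 121, 1 and 71 reads in null fat, against 434, 155 and 306 in hHKDC1 OE fat. Pkp3 had 85, 12 and 55 reads against 501, 206 and 343. Dsc2, a more widely expressed desmosomal cadherin, had 30, 8 and 37 against 101, 23 and 86, and Epcam had 7, 28 and 8 against 44, 17 and 63. In hHKDC1 OE replicate 3, Krt7 had 22 reads, Elf3, an epithelial transcription factor, 21, Cited1, a transcriptional coactivator, 36 and Csn3, a casein, 16, each the highest value among the fat libraries, while Csn1s1 and Csn2 had 0. The lymphocyte list was also highest in hHKDC1 OE replicates 1 and 3, and its part in these values was not tested.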
